A study of Mus musculus with 12 samples.

Results

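Oxidative phosphorylation is carried out by 5 protein complexes of the inner mitochondrial membrane, and the nuclear genes for their subunits were followed here in the normal colon of ApcMin mice on 2 diets. Genes were chosen by symbol, taking the Nduf, Sdh, Uqcr, Cyc1, Cox4 to Cox8 and Atp5 families, and a probe was kept where its detection p was under 0.05 on at least 4 of the 12 arrays. The rule found 99 probes of 80 genes among the 25697 probes of the array, and 88 probes of 72 genes were kept among 13497 kept in all, or 72 of 9509 kept genes with a symbol. Of these 88 probes, 85 were detected on all 12 arrays.

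ApcMin mice carry a truncating mutation of the tumour suppressor Apc and form intestinal polyps, and both diet groups were of this strain. One group received a diet deficient in methyl donors for 11 weeks and the other a methyl sufficient diet over the same time. The labels name 4 deficient and 2 sufficient animals with 2 samples from each, which gives 8 deficient and 4 sufficient Illumina bead arrays. Ages are not given in the labels. Whole normal colon was profiled, so a lower signal from fewer cells of a type cannot be told apart from less RNA per cell.

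Complex I (NADH dehydrogenase) and complex II (succinate dehydrogenase, also an enzyme of the tricarboxylic acid cycle) pass electrons to coenzyme Q. Complex III (the cytochrome bc1 complex) hands them to cytochrome c, and complex IV (cytochrome c oxidase) hands them to oxygen, with proton pumping by complexes I, III and IV. Complex V, ATP synthase, lets the protons back through its membrane c ring and makes ATP in its F1 head. Colonocytes depend on this machinery because they burn butyrate from bacterial fermentation. Subunits encoded in mitochondrial DNA were not analysed here.

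The sexes read from Y-linked genes and from Xist did not follow the animal labels: both sufficient animals, and deficient animals 3 and 4, each held a male and a female array. Each diet difference was therefore fitted with limma in 2 ways, over the 6 labelled animals and over 6 sex-matched pairs, in which the arrays of those 4 animals were rejoined by sex within their diet. Both fits give the same difference and differ in its error. A gene is said to have changed only where both fits pass an adjusted p of 0.05. An exact permutation test over 15 splits of 6 units cannot go below p = 0.0667. The array of sufficient animal 3 sample 1 stood apart for these genes, and values that rest on it are also given without it, an alternative added after the values were seen. That alternative left sufficient animal 3 with its sample 2 array alone, so sample number was no longer balanced between the diets. Values are normalised log2 signals, and a diet difference is deficient minus sufficient on the log2 scale. Across the arrays 12609 to 13241 probes were detected and the median scanner signal ran from 59.4 to 71.5.

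No oxidative phosphorylation gene changed with diet by that standard. Over labelled animals 1 of 88 probes (1.14%) passed limma's adjusted p of 0.05, that of Atp5pb, against 10.8% of all kept probes and 5.51% in its direction. Over sex-matched pairs 0 of 88 passed limma's test, against 0.282%. At an unadjusted p under 0.05, limma gave 9 of 88 against 28.7% over animals, and 3 of 88 against 15% over pairs. The differences were also small: 0 of 88 probes reached a 1.5-fold difference, against 6.46% of all kept probes. Only 7 of 88 (7.95%) reached 1.2-fold, against 28.9%, and these were probes of Ndufa3, Ndufa9, Sdhd, Cox7a1, Cox8b, Atp5a1 and Atp5pb. The median absolute difference was 0.11 over the 88 probes and 0.16 over all kept probes. Within a diet the arrays spread with a median SD of 0.19 for the 88 probes and 0.21 for all. The 88 probes were far brighter, with a median log2 level of 11.49 against 7.46 for all kept probes. The comparisons with all kept probes, here and further on, were not matched for signal level. Whether the smaller differences belong to these genes or to bright probes in general was therefore not tested.

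Intervals set a limit on what was missed. For 78 of 88 probes (88.6%) the 95% confidence interval over sex-matched pairs lay within 1.5-fold either way, against 62.9% of all kept probes. At one probe per gene this held for 62 of 72 genes, and the other 10 were Ndufa2, Ndufa3, Ndufa5, Ndufs6, Sdhd, Cox7a1, Cox8b, Atp5a1, Atp5e and Atp5pb. Directions were mixed, with 50 of 88 probes (56.8%) below 0 against 48.8% of all kept probes. The 4 sufficient and 8 deficient arrays did not overlap for 2 of 88 probes, against 6.33% of all kept probes, and both (Ndufa9 and Atp5pb) were lower in deficient colon, against 3.06% in that direction. Labelled animals did not overlap for 21 of 88 probes against 42.6%, with 17 lower against 20.7% and 4 higher against 21.9%. Sex-matched pairs did not overlap for 12 of 88 against 25%, with 10 lower and 2 higher against 12.5% in each direction.

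**Figure D1:**
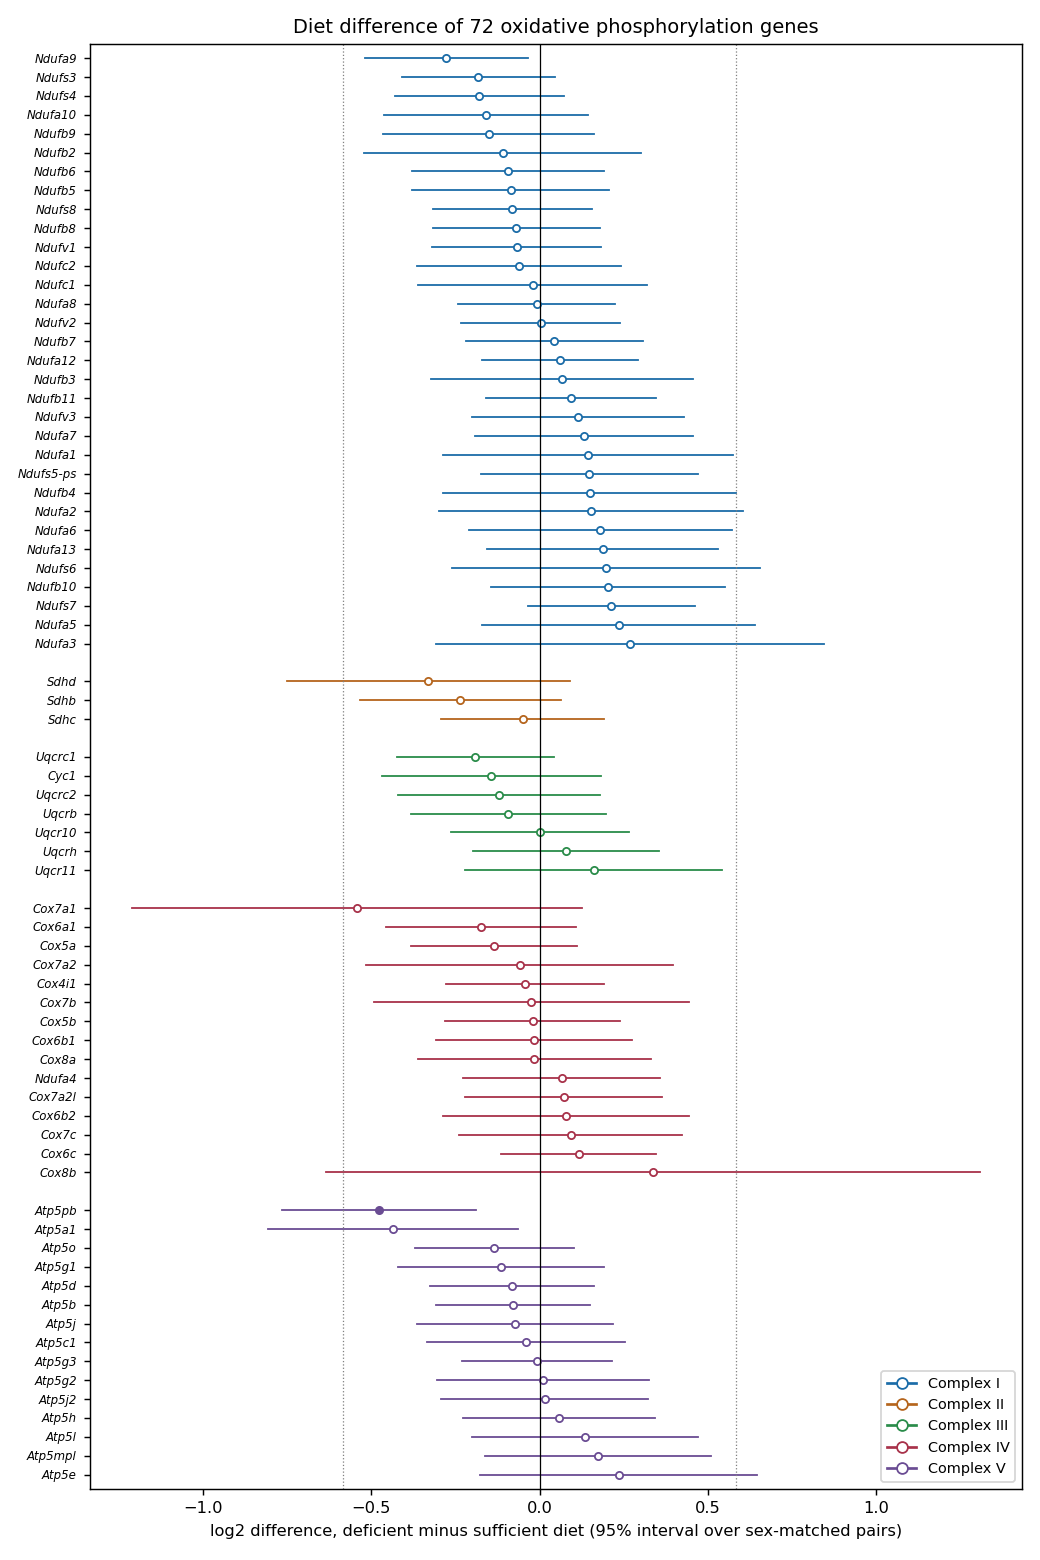
Difference of each of the 72 genes (x axis, log2 deficient minus sufficient, 1 probe a gene) with its 95% interval over sex-matched pairs, by complex; dotted lines mark 1.5-fold and the filled point passed the adjusted p over labelled animals. All points lie within the dotted lines, from -0.54 for Cox7a1 to 0.34 for Cox8b, and the 3 points of complex II lie below 0.

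By complex, the genes differed little in their centre. The median difference was 0.053 over the 32 genes of complex I, with 14 lower and 18 higher. In complex II all 3 measured genes were lower, with a median of -0.24. The medians were -0.092 over 7 genes of complex III (4 lower, 3 higher), -0.017 over 15 genes of complex IV (9 lower, 6 higher) and -0.041 over 15 genes of complex V (9 lower, 6 higher). The median over all 72 genes was -0.016 and that of all kept probes 0.0060. Without the array of sufficient animal 3 sample 1, described further on, the medians of complexes I, IV and V became -0.094, -0.13 and -0.12.

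Promoters are shown for 4 genes on which the results turn: Atp5pb for its test over animals, Cox7a1 for the lowest difference, and Sdhd and Ndufb4 for their differences between samples of one animal. Each line gives the 150 bases before the annotated start on the gene's own strand, from RefSeq on GRCm38.p6. The windows are chr3:105959264-105959413 (minus strand) for Atp5pb, chr7:30184021-30184170 (plus) for Cox7a1, chr9:50603850-50603999 (minus) for Sdhd and chr16:37654369-37654518 (minus) for Ndufb4. Capitals mark matches on either strand to GCGCA followed by any base and GCGC, the motif of NRF1, a regulator of many respiratory chain genes, to CCGGAAG, the core bound by ETS factors such as GABP, to TCTCGCGA, a CG-rich promoter element, or to TATAAA, the TATA box.
Atp5pb: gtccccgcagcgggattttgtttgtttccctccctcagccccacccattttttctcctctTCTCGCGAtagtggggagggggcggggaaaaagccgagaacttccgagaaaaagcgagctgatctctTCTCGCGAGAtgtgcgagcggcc
Cox7a1: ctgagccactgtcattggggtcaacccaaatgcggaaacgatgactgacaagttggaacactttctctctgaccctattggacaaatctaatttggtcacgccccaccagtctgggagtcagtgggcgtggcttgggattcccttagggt
Sdhd: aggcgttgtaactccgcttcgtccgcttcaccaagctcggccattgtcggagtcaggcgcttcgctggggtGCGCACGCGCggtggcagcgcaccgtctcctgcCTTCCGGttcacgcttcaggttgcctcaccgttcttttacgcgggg
Ndufb4: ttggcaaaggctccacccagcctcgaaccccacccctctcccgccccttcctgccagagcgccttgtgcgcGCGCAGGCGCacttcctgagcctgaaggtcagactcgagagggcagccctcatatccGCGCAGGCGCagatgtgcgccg
In Atp5pb the second capital run holds the element on both strands, overlapping each other. Cox7a1 had no match to any of the 4 motifs in the window shown.

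Of the 72 genes, 61 had a promoter in the RefSeq table, taken from 250 bases before to 50 bases after the start. The NRF1 motif was found in 13 of these 61 (21.3%), against 5.19% of 27025 genes with promoters of the same length. The ETS core was found in 15 (24.6% against 9.93%), TCTCGCGA in 3 (4.9% against 1.13%) and TATAAA in 6 (9.8% against 15.67%). These are matches of letters in a window, and binding was not measured here. The 27025 genes were not limited to those detected in these colons or matched for base content, so the shares compare unlike sets.

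In complex I, 5 of the core subunits shared with bacteria were kept, and their median difference was -0.067. Ndufa9, an accessory subunit beside the quinone site, had log2 signals of 11.96, 12.02, 12.17 and 11.97 on the sufficient arrays, listed here and for every gene in the order animal 1 samples 1 and 2, then animal 3 samples 1 and 2. On the 8 deficient arrays it ran from 11.60 to 11.87 with a median of 11.77. Every deficient array was below every sufficient one. The difference was -0.28 (SE 0.08 over animals, limma adjusted p = 0.0666; SE 0.10 and adjusted p = 0.285 over pairs), a fold of 0.825. It passed the threshold over animals in 3 alternatives, given with the processing, and missed it in every fit with pairs.

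Ndufs7, the core subunit that holds the last iron-sulphur cluster before coenzyme Q, had its higher values in deficient colon. Its sufficient arrays read 11.82, 11.89, 11.56 and 11.99, and its deficient arrays 11.90 to 12.15 with a median of 12.05. The groups overlapped between 11.90 and 11.99, and the difference of 0.21 had a limma adjusted p of 0.134 over animals and 0.387 over pairs. Ndufs3, another core subunit, stood at 11.00, 11.01, 11.18 and 11.03 on the sufficient arrays and at 10.68 to 11.01 with a median of 10.88 on the deficient ones, a difference of -0.18. Of the core genes, Ndufv2, an iron-sulphur subunit of the NADH-oxidising arm, differed least, by 0.0035 (95% interval -0.23 to 0.24 over pairs). Ndufa8, an accessory subunit, differed by -0.0087 (-0.24 to 0.22).

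Ndufa3 and Ndufa5, both accessory subunits, had the other large differences of complex I, at 0.27 and 0.23. Ndufa3 read 11.69, 11.21, 10.35 and 11.70 on the sufficient arrays and 10.99 to 11.80 with a median of 11.59 on the deficient ones. A single sufficient array, of animal 3 sample 1, was far below the rest, and without it the difference was -0.068. Ndufa5 read 11.64, 11.26, 10.72 and 11.46 against 11.13 to 11.72 with a median of 11.55, and its difference without that array was 0.051. A second, dimmer probe of Ndufa5 differed by -0.11. The 3 probes of Ndufv3, an accessory subunit of the NADH-oxidising arm, also parted in sign, at 0.11, 0.21 and -0.12. The 4 probes of Ndufs4, an accessory subunit needed to complete the complex, were all lower, between -0.23 and -0.13. One of the 32 genes, Ndufs5-ps, is annotated as a pseudogene, and its probe may also read Ndufs5, which was not analysed here under its own name. The core subunit Ndufs1 was detected on 0 of 12 arrays by its only probe.

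Complex II was measured through Sdhb, the iron-sulphur subunit, and through the membrane anchors Sdhc and Sdhd, while Sdha was not analysed here. Sdhd read 8.72, 9.96, 9.28 and 10.02 on the sufficient arrays and 8.37 to 9.80 with a median of 9.17 on the deficient arrays. The groups overlapped widely, and within each labelled animal the second sample was the higher. The difference was -0.33 (SE 0.11, limma adjusted p = 0.0896 over animals; SE 0.18, adjusted p = 0.421 over pairs). Without the array of sufficient animal 3 sample 1 it was -0.52, in a setting where sample number was not balanced between the diets. Sdhb read 10.22, 10.72, 10.75 and 10.57 against 10.23 to 10.44 with a median of 10.29. All but one of its sufficient arrays were above every deficient one, and animal 1 sample 1 was below them all. The difference was -0.24 (limma adjusted p = 0.145 over animals and 0.419 over pairs), and a second probe gave -0.14. Sdhc read 11.52, 11.65, 11.60 and 11.46 against 11.42 to 11.58 with a median of 11.51, a difference of -0.050 (95% interval -0.29 to 0.19 over pairs). With 3 genes, 1 of them at -0.050, the median of complex II describes these genes and no more.

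In complex III the catalytic and core proteins had values below 0 and the small subunits lay on both sides. Uqcrc1, a core protein facing the matrix, read 11.51, 11.46, 11.42 and 11.33 against 11.05 to 11.34 with a median of 11.27. The highest deficient array just exceeded the lowest sufficient one, and the difference was -0.19 (limma adjusted p = 0.181 over animals and 0.408 over pairs). Uqcrc2, its partner, differed by -0.12. Cyc1, the haem protein that reduces cytochrome c, read 11.30, 11.69, 11.71 and 11.29 against 11.09 to 11.48 with a median of 11.39, a difference of -0.14 (95% interval -0.47 to 0.18). The groups overlapped. Uqcr10, a small subunit, differed by 0.0017 (-0.26 to 0.27), Uqcrh, the hinge protein at the cytochrome c1 contact, by 0.079 and Uqcr11, another small subunit, by 0.16. Uqcr11 differed by -0.068 without the array of sufficient animal 3 sample 1. Uqcrfs1, the Rieske iron-sulphur protein, and Uqcrq were detected on 0 of 12 arrays. An undetected probe gives no value and does not show that its gene is silent, here or for Ndufs1 and Atp5k.

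In complex IV the isoforms of most tissues differed by little between the diets. Cox4i1, the common isoform of the regulatory subunit 4, read 13.42, 13.52, 13.49 and 13.61 against 13.31 to 13.57 with a median of 13.47. The groups overlapped throughout, with a difference of -0.044 (95% interval -0.28 to 0.19 over pairs). Cox6b1, which contacts cytochrome c, differed by -0.017 (-0.31 to 0.27), and Cox8a, the common isoform of subunit 8, by -0.016 (-0.36 to 0.33). Cox6a1, the common isoform of subunit 6a, read 13.25, 13.13, 12.89 and 13.20 against 12.68 to 13.24 with a median of 12.95, a difference of -0.17 with a limma adjusted p of 0.264 over animals and 0.521 over pairs. Ndufa4, once placed in complex I and now in complex IV, differed by 0.065 (-0.23 to 0.36), and Cox7a2l, which helps join complexes III and IV in supercomplexes, by 0.071 (-0.22 to 0.36).

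The muscle isoforms of complex IV had the widest intervals of the 72 genes. Cox7a1, the subunit 7a isoform of heart and skeletal muscle, read 10.82, 10.24, 9.58 and 10.65 on the sufficient arrays and 9.10 to 10.32 with a median of 9.82 on the deficient ones. The 2 male sufficient arrays were above all 8 deficient arrays and the female array of animal 3 was near the bottom of them. The difference was -0.54 (SE 0.22, limma adjusted p = 0.151 over animals; SE 0.29, adjusted p = 0.412 over pairs), and -0.81 with an adjusted p of 0.0610 without that female array. Leaving out deficient animal 2, it was -0.70 with a limma adjusted p of 0.0236, in a setting that passed 2060 of 13497 probes. That setting left prostate transcripts, described further on, only in the sufficient group, on the same male arrays that were highest for Cox7a1. Cox7a2, the isoform of other tissues, read 8.63, 8.92, 8.05 and 9.32 against 8.38 to 9.27 with a median of 8.54, a difference of -0.059 (95% interval -0.52 to 0.40), and of -0.38 without the array of sufficient animal 3 sample 1. Cox7a2 also differed by sample number, described further on, which was not balanced between the diets without that array.

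Cox8b, the subunit 8 isoform of muscle and brown fat, had the highest difference and the widest interval. It read 6.54, 6.30, 5.39 and 6.49 on the sufficient arrays and 5.37 to 7.35 with a median of 6.73 on the deficient arrays. The groups overlapped across the whole sufficient range. The difference was 0.34 (95% interval -0.63 to 1.31 over pairs, limma adjusted p = 0.491 over animals and 0.728 over pairs), and 0.062 without sufficient animal 3 sample 1. That array and the deficient male arrays of animal 3 sample 1 (5.82) and animal 4 sample 2 (5.37) were the 3 lowest for Cox8b. The other restricted isoforms Cox4i2, Cox6a2, Cox7b2 and Cox8c were detected on 0 of 12 arrays, and Ndufa4l2 was not analysed here.

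Muscle and fat could both be in a whole colon sample, so their markers stand beside these isoforms. Of 10 striated muscle markers, 9 were on the array and 5 were kept. Over animals the myosin light chain Myl1 was higher by 0.94 (limma adjusted p = 0.00311) and the troponin Tnni2 differed by -0.54 (adjusted p = 0.0201). Neither passed over pairs, and the myosins Myh1 and Myh4 and the calcium buffer Pvalb were detected on 0 arrays. The mean log2 level of the 5 kept markers was 6.26 to 6.70 on sufficient and 6.63 to 7.42 on deficient arrays. All 8 smooth muscle markers were kept, 7 were higher and 0 passed either fit (median difference 0.35, mean level 10.95 to 11.12 against 10.71 to 11.71). Of 8 adipocyte markers 3 were kept, with 0 past either fit and levels of 6.38 to 6.96 against 5.11 to 7.56, and Fabp4, Plin1, Cidea and the brown fat gene Ucp1 were detected on 0 arrays. The part of muscle and fat in the Cox7a1 and Cox8b values was not tested.

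In complex V the gene that passed over animals belongs to the stator. Atp5pb, subunit b of the peripheral stalk that keeps the F1 head from turning, read 10.95, 11.01, 11.25 and 10.87 on the sufficient arrays. On the deficient arrays it ran from 10.26 to 10.77 with a median of 10.55, below every sufficient array. The difference was -0.48, a fold of 0.718, with an SE of 0.10 and a limma adjusted p of 0.0210 over animals. Over pairs the SE was 0.12, the 95% interval -0.77 to -0.19 and the adjusted p 0.164. Without the array of sufficient animal 3 sample 1, its highest, the difference was -0.38 with an adjusted p of 0.0771. The female arrays read 11.01 and 11.25 against 10.57 and 10.77, which follows from the separation of all arrays and adds no further support.

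Atp5a1, the F1 alpha subunit, read 9.93, 10.99, 10.84 and 11.09 against 9.74 to 10.76 with a median of 10.28. All but one of its sufficient arrays were above all deficient ones, and animal 1 sample 1 was among the lowest of all. The difference was -0.44 (SE 0.14, limma adjusted p = 0.0841 over animals; SE 0.16, adjusted p = 0.273 over pairs). The F1 partner Atp5b, the catalytic beta subunit, differed by -0.080. Its scanner signals of 16148 to 18676 stood near the array maxima of 19733 to 22964, where a bead array may compress differences. Atp5e, the epsilon subunit, read 7.09, 7.63, 6.26 and 7.99 against 7.12 to 8.12 with a median of 7.41, a difference of 0.24, and of -0.20 without sufficient animal 3 sample 1. Atp5e also differed by sample number, described further on, which was not balanced between the diets without that array.

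The c ring is encoded by 3 genes that yield the same mature protein. Atp5g1 read 12.22, 12.25, 11.96 and 12.25 against 11.66 to 12.28 with a median of 12.13, a difference of -0.12 (95% interval -0.42 to 0.19 over pairs). Atp5g2 differed by 0.0099 (-0.30 to 0.32) and Atp5g3 by -0.0086 (-0.23 to 0.21). Atp5g3 had a mean log2 signal of 14.15, above the 14.10 of Atp5b, so compression of bright signals may affect it as well. By part of the enzyme the medians were -0.080 over 5 F1 genes, -0.10 over 4 peripheral stalk genes, -0.0086 over the c ring and 0.14 over 3 other membrane subunits (Atp5l, Atp5j2 and Atp5mpl). Atp5k, a membrane subunit of the dimer interface, was detected on 0 of 12 arrays.

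**Figure D2:**
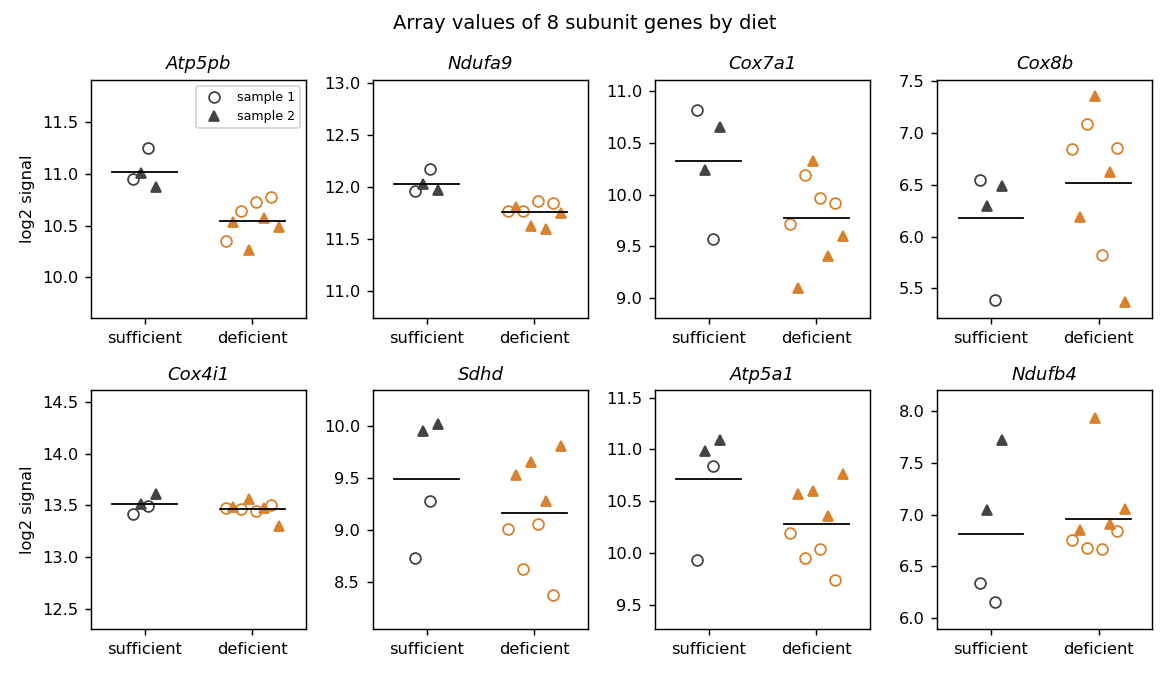
Normalised log2 signal (y axis, each panel spanning the same range) of 8 subunit genes on each array by diet; open circles are sample 1 and filled triangles sample 2 of a labelled animal, and lines are the diet means. The diets are apart for Atp5pb (sufficient 10.87 to 11.25, deficient 10.26 to 10.77) and Ndufa9, while Sdhd, Atp5a1 and Ndufb4 are ordered more by sample number.

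Across arrays, the array of sufficient animal 3 sample 1, a female, stood apart for these genes. Each gene was set against its own mean over 12 arrays, and the median of these deviations over all 72 genes was -0.29 there, with 19 of 72 genes above their own mean. On the other 11 arrays the median lay between -0.11 and 0.19. The highest were deficient animal 2 sample 2 (0.19, 61 of 72 genes above their mean) and sufficient animal 3 sample 2 (0.16, 64 of 72). On the array that stood apart, complex I was lowest at -0.41, then complex IV at -0.33, complex III at -0.23 and complex V at -0.14, while complex II was at 0.073. The 14 kept genes of the tricarboxylic acid cycle were at 0.19 on the same array and 14 other mitochondrial genes (import, chaperones, carriers) at 0.13. The 70 mitochondrial ribosome genes and the 36 assembly factors were at -0.11, and the 4 kept genes of the list of uncoupling and supercomplex factors (Atpif1, Higd1a, Higd2a and Dmac1) at -0.30. Of the cell type marker lists, striated muscle was at -0.62, fibroblasts at -0.64, neurons and glia at -0.63, goblet cells at -0.33 and smooth muscle at -0.27 there, while colonocytes were at 0.39, lymphocytes at 0.37 and crypt cells at 0.20. Several lists lay on the same side of 0 on all 4 sufficient arrays. Neurons and glia ran from -0.63 to -0.44 on them, fibroblasts from -0.64 to -0.22 and lymphocytes from 0.37 to 0.54. Sufficient animal 1 sample 2 also had colonocytes at 0.39, smooth muscle at -0.28 and striated muscle at -0.52. Goblet cells were above 0 on the other sufficient arrays. The array of sufficient animal 3 sample 1 had 13241 detected probes, the most of the 12.

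**Figure D3:**
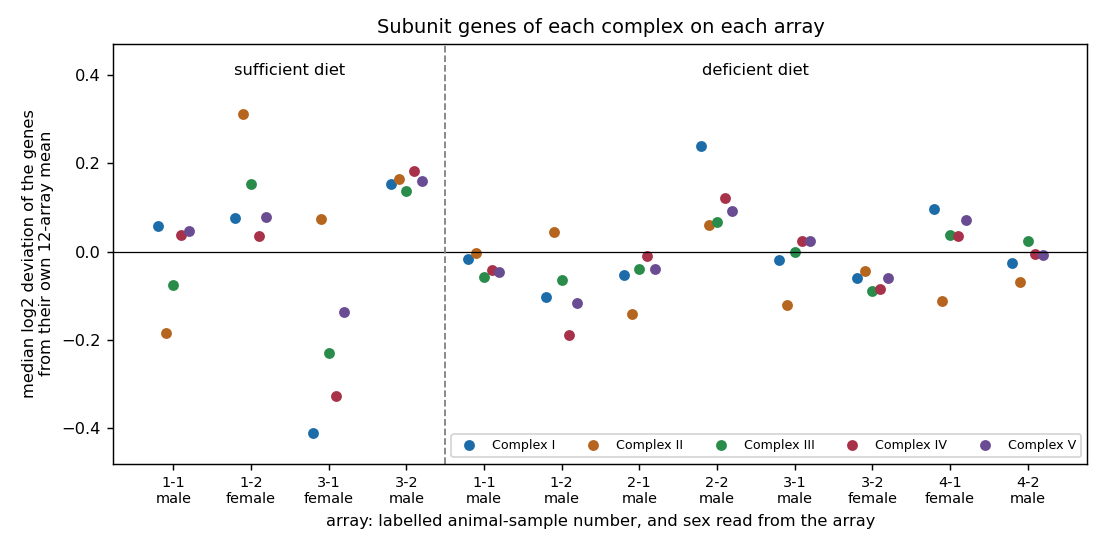
Median log2 deviation of the genes of each complex from their own 12-array mean (y axis) on each array (x axis, labelled animal and sample number with the sex read from the array). Sufficient 3-1 is lowest for complexes I (-0.41), III, IV and V, and the deficient arrays lie between -0.19 and 0.24.

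Between sample 1 and sample 2 arrays, subunit probes differed at a share near that of all kept probes, counting both directions. This was with the sex-matched pair as a block, and with the labelled animal as a block Sdhd alone differed. This comparison was added after the values were seen. Each labelled animal and each sex-matched pair holds one sample 1 and one sample 2, so the difference cancels in the diet comparison over all 12 arrays. It does not cancel without the array of sufficient animal 3 sample 1. With the sex-matched pair as a block, 18 of 88 probes (20.5%) passed limma's adjusted p of 0.05 and all 18 were higher in sample 2, against 16.5% of all kept probes in both directions and 9.2% in that direction. With the labelled animal as the block 1 of 88 passed (Sdhd) against 1.16%, and with diet and sample number over 12 arrays 9 of 88 against 3.83%. The 6 arrays of sample 2 lay above all 6 of sample 1 for 9 of 88 probes, against 2.47% of all kept probes in both directions. The median over the 88 probes was 0.045 and that of all kept probes -0.022. The labels do not say how the samples were taken or processed, and the origin of the difference was not tested.

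Sdhd differed most between the samples. It ran from 8.37 to 9.28 on the sample 1 arrays and from 9.27 to 10.02 on the sample 2 arrays, which touch at one point, and sample 2 was the higher in 6 of 6 labelled animals. Sample 2 minus sample 1 was 0.86 (SE 0.09, limma adjusted p = 0.000819 with the pair block and 0.0437 with the animal block). Ndufb4, an accessory subunit of the complex I membrane arm, ran from 6.16 to 6.85 in sample 1 and from 6.85 to 7.93 in sample 2. The difference was 0.68 (SE 0.16, limma adjusted p = 0.0168 with the pair block and 0.134 with the animal block). Cox7b, a small subunit of complex IV, ran from 6.84 to 7.46 and from 7.47 to 8.57. Its difference was 0.70 (SE 0.16, limma adjusted p = 0.0139 with the pair block and 0.156 with the animal block). In both genes every sample 2 array was above every sample 1 array.

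The other genes past the threshold with the pair block came from all parts of the chain. With the animal block their limma adjusted p ran from 0.0580 (a probe of Ndufs4) to 0.292 (Atp5c1), so they did not pass. In the complex I membrane arm, Ndufb2 was higher in sample 2 by 0.65, Ndufb5 by 0.62, Ndufb10 by 0.50 and Ndufb9 by 0.44. Uqcrb of complex III was higher by 0.40, and of complex IV Cox6c by 0.48, Cox7a2 by 0.48 and Cox6b2, the testis isoform of subunit 6b, by 0.43. In complex V, Atp5a1 was higher by 0.61, Atp5e by 0.59, Atp5h and Atp5o of the peripheral stalk by 0.32 and 0.31, and Atp5c1, the central shaft, by 0.23. Probes of one gene disagreed: of the 4 probes of Ndufs4, one was higher by 0.74 and the brightest by 0.01, and of the 2 probes of Ndufa5 the dimmer was higher by 0.79 while the brighter differed by -0.08. Ndufa9, Atp5pb and Cox7a1 did not pass.

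**Figure D4:**
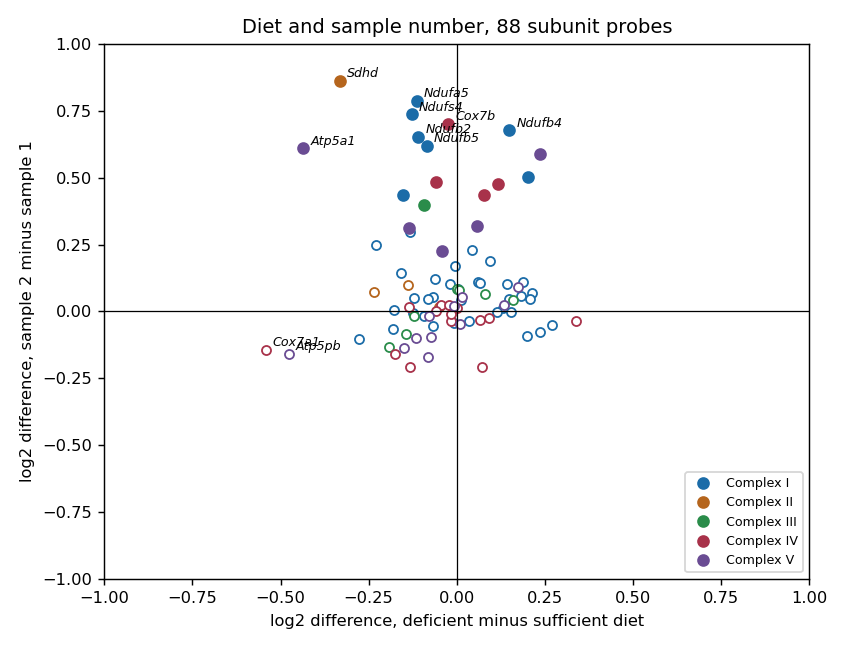
Each of the 88 probes by its diet difference (x axis, log2 deficient minus sufficient) and by its difference between samples (y axis, log2 sample 2 minus sample 1, sex-matched pair as block); filled points passed the adjusted p for sample number. The 18 filled points all lie above 0, up to 0.86 for Sdhd, on both sides of 0 for diet.

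The diet difference was set between the sexes as an interaction over the 6 sex-matched pairs. Each sex of the sufficient diet, and the deficient females, were a single pair there, so the fit could detect little. None of the 88 probes passed (0 by limma), as none of all kept probes did, and the lowest adjusted p among the 88 was 0.869. At an unadjusted p under 0.05 limma gave 6 of 88, against 5.59% of all kept probes. Male arrays alone gave medians of -0.095 for complex I and -0.13 for complex IV, and female arrays alone 0.16 and 0.090, values with no test of their own.

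Genes that build, feed or govern the chain gave few calls and small medians. The share of all kept probes past limma's threshold over animals was 5.51% lower and 5.3% higher. Of 36 kept assembly factors 12 were lower and 24 higher (median 0.064), and 1 passed over animals. This was Ndufaf7, a methyltransferase needed for complex I assembly, at -0.34 (SE 0.09, limma adjusted p = 0.0436 over animals and 0.232 over pairs), and next came Coa6, a copper chaperone factor of complex IV, at 0.27. Of 11 kept genes of cytochrome c and coenzyme Q, 1 passed over animals. Coq7, a hydroxylase of coenzyme Q synthesis, stood at 7.96 in sufficient and 7.58 in deficient colon, a difference of -0.38 (SE 0.08, adjusted p = 0.0216 over animals and 0.162 over pairs). Coq8b, a kinase-like protein of the same pathway, differed by -0.45 with an adjusted p of 0.0854 and 0.303. Cycs, cytochrome c itself, differed by -0.059 (95% interval -0.74 to 0.62).

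Of 14 kept genes of the tricarboxylic acid cycle and pyruvate dehydrogenase, 0 passed (limma; median -0.057). Idh3b, a subunit of isocitrate dehydrogenase, differed by 0.34 and Dld, the shared dihydrolipoamide dehydrogenase, by -0.32. Cs, citrate synthase, often taken as a measure of mitochondrial mass, differed by -0.064 (95% interval -0.40 to 0.27). Of 15 kept regulators of mitochondrial biogenesis 0 passed (median 0.0039). Ppargc1a, the coactivator PGC-1 alpha, differed by 0.48 (interval 0.04 to 0.93, adjusted p = 0.244 over animals and 0.299 over pairs). Tfam, which packs and transcribes mitochondrial DNA, differed by -0.12 (-0.43 to 0.19), Polrmt, the mitochondrial RNA polymerase, by 0.21 and Esrra, a nuclear receptor partner of PGC-1 alpha, by 0.27.

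Of 14 kept genes of mitochondrial import, chaperones and carriers 12 were lower and 0 passed (median -0.052), led by the outer membrane channel Vdac2 at -0.28 and the import motor subunit Timm44 at -0.25. Of 70 kept mitochondrial ribosome genes 35 were lower and 35 higher. Over animals 2 passed and both were higher, Mrpl51 by 0.61 (SE 0.13, limma adjusted p = 0.0241) and Mrpl23 by 0.36 (SE 0.09, adjusted p = 0.0442), and over pairs neither did (0.164 and 0.358). The list of uncoupling and supercomplex factors kept 4 genes (Atpif1, Higd1a, Higd2a and Dmac1), without any uncoupling protein gene. Of these 4 genes 0 passed, with Higd1a at -0.33 and Higd2a at 0.14. Over pairs 0 genes of these 7 lists passed.

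Among markers of the cells in the wall of the colon, 1 gene passed both fits, the plasma cell gene Mzb1, and the counts over animals that follow stand against 5.51% of all kept probes lower and 5.3% higher. Of 7 kept colonocyte markers 5 were lower and 2 higher (median -0.20), and 2 lower ones passed over animals, Aqp8, a water channel, at -1.16 and Car4, a carbonic anhydrase, at -0.73 (mean level of the list 10.84 to 11.37 on sufficient and 10.51 to 11.01 on deficient arrays). Of 7 kept crypt and proliferation markers 4 were lower and 3 higher (median -0.44), with 3 lower and 1 higher past over animals (6.93 to 7.41 against 6.74 to 7.04). All 5 kept goblet cell markers were lower (median -0.14) and 0 passed (10.56 to 11.31 against 10.44 to 11.16). All 4 kept lymphocyte markers were lower, 3 past over animals, and Mzb1 fell by 3.24 (level 6.92 to 7.05 against 5.39 to 6.18, with Ms4a1 and Cd8a on 0 arrays). All 7 fibroblast markers were higher, 4 past over animals (8.34 to 9.09 against 8.82 to 9.67), and all 4 kept neuronal and glial markers were higher and past over animals (6.61 to 6.79 against 7.03 to 7.74, with S100b on 0 arrays). Tgm4, a prostate gene, read 12.51 to 12.83 on 4 arrays, the sufficient male pair and deficient animal 2, and 4.57 to 4.73 on the other 8. Without the pairs that carry it, 0 of 88 and 0 of all kept probes passed limma's test, and 10 of 88 were at an unadjusted p under 0.05 against 12.7% of all. The medians of complexes II and IV were then -0.41 and 0.13. The part of these cells in the subunit values was not tested.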

How the data were processed

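The authors deposited a scanner table with a mean bead intensity per probe and array, on a linear scale, and a detection p-value beside it, per the file headers. The authors' processed values, deposited in the series matrix, are on a log2 scale and centred per probe; they served as an alternative. Per the labels' protocols, colon RNA was extracted with Trizol and labelled with biotin. Any scanner normalization before deposit is not given in the sources used here.

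The intensities went through limma's neqc (limma 3.58.1 under R 4.3.3), which corrects the background from negative controls, here estimated from the detection p-values, adds an offset of 16, equalizes the quantiles of the arrays and takes log2. Probes were named through the platform annotation: 23978 had 1 symbol and 1719 had none. Diet was fitted across all 13497 kept probes with limma's lmFit and eBayes, two-sided, with Benjamini-Hochberg adjustment over all of them. The 2 arrays of a unit were averaged first. The fits were tested on simulated data.

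The deviations of the 2 arrays of a unit from the diet mean correlated at 0.02, 0.06, 0.53, 0.40, -0.26 and -0.27 in the labelled animals, and at 0.38 to 0.73 in the sex-matched pairs. Because 4 labelled animals mix the sexes, p-values over animals do not measure the spread between mice. Animal number pairs no animals across the diets.

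One probe a gene, the kept one with the highest mean signal, entered the medians. Genes named by rule were all of complex II, the 3 largest and 2 smallest differences of each other complex, every probe past either fit, the common and tissue isoforms of complex IV and the c ring genes, and in each pathway list the 2 with the smallest p with Ppargc1a, Tfam, Cycs and Cs. Other genes named, such as Ndufs3, Ndufs7, Ndufs4, Ndufv3, Uqcrc2 and Atp5b, were chosen after their values were seen. The members, the lists and the sex-matched pairs were chosen with earlier results of these data known. The bead chip was not used as a block.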

Additional observations from a re-analysis of the deposited data

Results flagged for a closer look

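Among 68 groups of 4 or 8 arrays (the named genes and the complex medians in each diet), 5 held an array far from the others by Dixon's test, and chance gives about 1 in 20 groups. On the array of sufficient animal 3 sample 1, the median deviation of complex I was -0.41 and the log2 signal of Atp5g1 was 11.96, each far below the other 3 sufficient arrays. Among the deficient arrays, Cox4i1 was low at 13.31 on animal 4 sample 2 and Cyc1 was low at 11.09 on animal 3 sample 2. Uqcrh was high at 13.75 on animal 4 sample 1.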

How the results depend on the processing

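Member probes past the threshold numbered 1 over labelled animals and 0 with sex-matched pairs, with sex as a covariate, with animal number as a replicate block, with sex-matched pairs free of prostate transcripts, and, chosen after seeing the data, with sample 1 arrays alone, sample 2 arrays alone or without the array of sufficient animal 3 sample 1. They numbered 2 (Ndufa9 and Atp5pb) with the labelled animal as a random block, with quantile normalization alone and with no filter on dim probes, and 0 to 2 when 1 animal or pair was left out. Over all probes tested 1460 passed over animals, 38 with pairs, 574 with the sex covariate, 638 with the replicate block, 0 with pairs free of prostate transcripts, 35 and 28 with sample 1 and sample 2 arrays and 712 without that array. The settings with 2 members gave 2116, 1518 and 1333, leaving out 1 animal 87 to 2060 and leaving out 1 pair 0 to 351, so several settings called few probes of any kind. The cause of these shifts was not tested. Atp5pb stayed below 0 in every alternative, and with the replicate block its difference was -0.47 (limma adjusted p = 0.0710). The paired fit changed no other call.

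Leaving out 1 animal or pair gave -0.10 to 0.15 for complex I, -0.40 to -0.068 for II, -0.13 to -0.029 for III, -0.14 to 0.12 for IV and -0.077 to -0.0087 for V. Male arrays alone gave -0.095 for I, -0.047 for II and -0.13 for IV, and female arrays alone 0.16 for I, -0.47 for II, 0.090 for IV and 0.013 for V. Pairs free of prostate transcripts gave -0.41 for II and 0.13 for IV, and all probes of a gene -0.045 for III. Sample 1 arrays gave 0.22 for I, 0.017 for III, 0.12 for IV and 0.032 for V, sample 2 arrays -0.12 for I, -0.13 for IV and -0.13 for V, and leaving out sufficient animal 3 sample 1 gave -0.094, -0.13 and -0.12 for I, IV and V. The number of probes higher in sample 2, 18 with the pair as block, was 1 with the animal as block, 9 over 12 arrays and 10 to 18 without 1 pair. Of the single differences, 613 kept direction and side of the threshold, 95 that never passed changed sign, 15 (all Atp5pb) lost the threshold, 4 gained it and 0 reversed. The bead chip as a block was not run, since the files name no chip. With 2 sufficient animals, small differences were not detectable, and 8 genes without a detected probe have no value.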
